A study of Mus musculus with 3 samples.

Results

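The D-box binding factors of the circadian clock, Dbp, Tef, Hlf and Nfil3, were followed in mouse ovaries in which the clock gene Bmal1 (symbol Arntl) was floxed. The genes were found by the gene name in the array files, among non-control probes only. This gave 4 genes read by 8 probes, of 41174 different probes on the array: 1 probe for Dbp, 4 for Tef, 1 for Hlf and 2 for Nfil3. All 8 probes passed the filter on dim probes, and 17852 genes were tested in all.

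Conditional knockout (cKO) females were Bmal1 fx/fx and carried Cre recombinase under the Sf-1 promoter, which is active in steroid-producing cells of the gonad and adrenal. Control females were Bmal1 fx/fx without Cre, so the floxed alleles were common to both groups. All were C57Bl/6J mice aged 10 weeks, kept in 12 hours of light and 12 hours of dark, with ovaries taken at Zeitgeber time 12 on day 3.5 after copulation. Whole ovaries were measured, so cells without Sf-1 activity contributed RNA to both groups. On each of 3 two-colour arrays, RNA pooled from 3 cKO animals was labelled with cy3 and RNA pooled from 3 controls with Cy5, which gives 3 pools and 9 animals of each genotype. The genotype labels name the control animals wild type, and the control source names read fxwt where the genotype labels and the design text read fx/fx. The number after sf- in the cKO genotype label differs between arrays. Dyes were not swapped, so dye and genotype cannot be told apart.

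DBP, TEF and HLF are the PAR bZIP factors, named for a domain rich in proline and acidic amino acids next to their DNA-binding basic leucine zipper. They bind D-box elements as dimers and activate transcription. NFIL3, also called E4BP4, has a related basic leucine zipper without the PAR domain, binds the same elements and mainly represses. Dbp is a textbook target of the BMAL1 and CLOCK dimer at E-boxes, and Nfil3 is repressed by the REV-ERB receptors and activated by the ROR receptors. In liver the PAR bZIP factors are known for driving daily rhythms of drug-metabolising enzymes.

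Promoter windows are shown for Tef, whose windows hold an E-box, and for Dbp and Nfil3, the genes with the largest ratios. Each is the 250 bases before a transcription start in RefSeq's GRCm38.p6, read in the gene's direction, and all 4 genes matched by symbol. Capitals mark the letters of a searched motif. The Dbp window is chr7:45704997-45705246 on the plus strand. The Tef windows, before 2 alternative starts, are chr15:81802423-81802672 and chr15:81811164-81811413 on the plus strand. The Nfil3 window is chr13:52981040-52981289 on the minus strand.
Dbp: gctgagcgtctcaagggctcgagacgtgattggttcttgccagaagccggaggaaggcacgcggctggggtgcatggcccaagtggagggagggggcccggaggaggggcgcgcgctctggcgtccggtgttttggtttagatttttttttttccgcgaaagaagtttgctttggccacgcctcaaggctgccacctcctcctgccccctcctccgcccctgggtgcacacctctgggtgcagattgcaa
Tef, upstream start: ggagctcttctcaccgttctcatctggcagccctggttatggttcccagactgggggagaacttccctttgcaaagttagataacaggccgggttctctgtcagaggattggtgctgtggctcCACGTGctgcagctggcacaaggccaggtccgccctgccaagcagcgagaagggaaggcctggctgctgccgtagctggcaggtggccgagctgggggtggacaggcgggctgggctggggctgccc
Tef, downstream start: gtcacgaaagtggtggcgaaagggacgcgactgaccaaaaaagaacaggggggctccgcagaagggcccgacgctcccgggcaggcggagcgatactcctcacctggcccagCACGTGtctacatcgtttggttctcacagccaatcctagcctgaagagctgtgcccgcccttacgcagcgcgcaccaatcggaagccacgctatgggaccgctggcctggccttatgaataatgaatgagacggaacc
Nfil3: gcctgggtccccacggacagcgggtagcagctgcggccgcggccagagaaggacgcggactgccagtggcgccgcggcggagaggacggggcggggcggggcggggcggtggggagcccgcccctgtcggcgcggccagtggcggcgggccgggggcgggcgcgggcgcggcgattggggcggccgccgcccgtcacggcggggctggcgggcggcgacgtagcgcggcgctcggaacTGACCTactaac
The motifs searched on both strands were the E-box CACGTG, its variant CACGTT, the D-box as TTATGTAA and TTACGTAA, the nuclear receptor site AGGTCA, and the ROR response element, which contains that site. Both Tef windows held 1 CACGTG, its first base lying 127 and 138 bases before the start. Of all 32851 promoter windows of this length, 6.02% held CACGTG. The Nfil3 window held 1 AGGTCA on the opposite strand, 12 bases before the start, a site found in 14.0% of all windows. The windows of Dbp and Hlf held none of the searched motifs. The other motifs were in none of the 5 windows and in 3.85% (CACGTT), 0.819% (TTATGTAA), 0.113% (TTACGTAA) and 0.332% (the ROR response element) of all windows. A match is a description of letters and was not tested as a binding site. The windows differed in base composition: GC content was 62.4% for Dbp, 63.6% and 60.4% for Tef, 67.2% for Hlf and 81.6% for Nfil3, against a median of 52.4% over all windows.

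Dbp measured lower in the cKO pools and Nfil3 higher, while Tef and Hlf lay less far below 0. Each value is the log2 of the cKO signal over the control signal of a spot, given as mean ± SD over the 3 arrays (n = 3), after background correction and loess normalization. Each gene was read by its brightest probe, and its ratio was tested with limma across all 17852 genes with Benjamini-Hochberg adjustment. Of the 4 genes, 0 passed an adjusted p of 0.05 in limma. Over all genes 0.174% passed, 0.106% lower and 0.0672% higher. At an unadjusted p under 0.05, 2 were lower (Dbp and Tef), as were 6.43% of all genes, and 1 was higher (Nfil3), as were 5.9%. In either direction that threshold took 12.3% of all genes. All 4 genes kept 1 sign on all 3 arrays, Dbp, Tef and Hlf below 0 and Nfil3 above. Among all genes 17.8% were below 0 on all 3 arrays and 17.5% above. In whole ovaries, fewer cells of a type and less RNA per cell cannot be told apart.

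**Figure D1:**
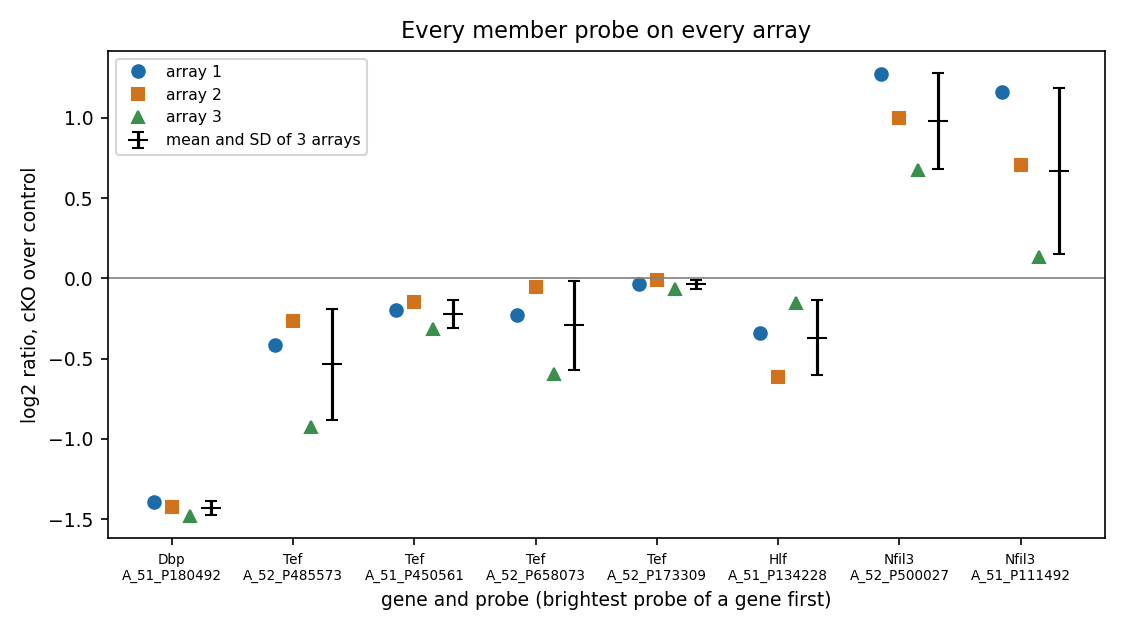
Log2 ratio of cKO over control (y axis) for each of the 8 probes (x axis), with a symbol for each array and a bar for the mean and SD of the 3 arrays. The Dbp symbols lie within 0.09 of each other near -1.43, the 12 Tef values (1 of which, at 0.07, is above 0 with the scanner software's signals) and the 3 Hlf values lie below 0, and the 6 Nfil3 values lie above 0.

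Dbp, D site albumin promoter binding protein, is the PAR bZIP factor with the strongest daily rhythm in many tissues. Its log2 ratio was -1.39, -1.42 and -1.48 on arrays 1 to 3. The 3 arrays were close together, and no value approached 0. The mean was -1.43 ± 0.05, or 2.70-fold lower in cKO, with a 95% interval in limma of -1.75 to -1.11 (adjusted p = 0.0506). The interval corresponds to 0.297 to 0.462 of the control signal. Dbp ranked 39 by p-value and 41 from the lowest ratio among the 17852 genes. An SD this small or smaller was found in 3.43% of genes. It lay below the median SD among replicate spots of a probe within an array, which was 0.190, 0.141 and 0.183 on arrays 1 to 3 (245 probes). The probe was far above background: the Dbp signal was 133, 140 and 140 times the local background in the cKO channel and 334, 277 and 217 times in the control channel. On the normalised log2 scale the cKO levels were 12.19, 12.43 and 12.12 and the control levels 13.58, 13.85 and 13.60. The groups did not overlap, the highest cKO level lying below the lowest control level. That held for 9.82% of all genes.

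The limma call for Dbp sat at the threshold. With a normexp offset of 10 in place of 50 the adjusted p was 0.0495, and with the stricter filter, which asks for signal above background in the 2 channels of every array, it was 0.0444. The Dbp ratio was -1.43 with the offset of 10, and the stricter filter reused the array ratios of the main setting. Arrays 2 and 3 shared a slide, and their Dbp mean was -1.45 (limma adjusted p = 0.345), and with slide as a block it was -1.42 (limma adjusted p = 0.121).

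Tef, thyrotroph embryonic factor, first described in the pituitary, gave -0.41, -0.27 and -0.93 on arrays 1 to 3. Array 3 was lowest, and all 3 values were below 0. The mean was -0.54 ± 0.35, or 1.45-fold lower, with a 95% interval of -1.0 to -0.07 (limma adjusted p = 0.356). The normalised cKO levels were 11.04, 11.19 and 10.88 and the control levels 11.45, 11.46 and 11.80. The groups did not overlap, as in 9.82% of all genes. Array 3 had both the lowest cKO level and the highest control level. Without array 3 the Tef mean was -0.34. Arrays 2 and 3, from the same slide, averaged -0.60 (limma adjusted p = 1), and the fit with slide as a block gave -0.51.

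The other 3 Tef probes were close to background and lay nearer 0. Probe A_52_P658073 gave -0.23, -0.06 and -0.60, a mean of -0.29 ± 0.28. Its cKO channel was well above background on 2 of the 3 arrays. Probe A_51_P450561 gave -0.20, -0.15 and -0.32, a mean of -0.22 ± 0.09. Probe A_52_P173309 gave -0.04, -0.01 and -0.06, a mean of -0.04 ± 0.03. The signals of this last probe were 1.36, 1.5 and 1.36 times the local background in the cKO channel, against 63.6, 56.5 and 59.0 for the brightest Tef probe, A_52_P485573. The offset of 50 added to the signals pulls such dim ratios toward 0. With the scanner software's processed signals the 4 probes averaged -0.51, -0.89, -0.36 and -0.30, in the order A_52_P485573, A_52_P658073, A_51_P450561, A_52_P173309. There the value of -0.89 rests on array 3, at -2.37, where the cKO spot was not well above background. Array 2 was above 0 for that probe, at 0.07. In the fit of each probe on its own (26421 probes), the limma adjusted p was 0.378, 0.551, 0.553 and 0.940 in that order.

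Hlf, hepatic leukemia factor, known also from a fusion with E2A in leukaemia, gave -0.34, -0.61 and -0.15 on arrays 1 to 3. Array 2 was lowest and array 3 nearest 0. The mean was -0.37 ± 0.23, or 1.29-fold lower, with a 95% interval of -0.76 to 0.02 (limma adjusted p = 0.423). The Hlf signal was 5.41, 4.30 and 4.52 times the local background in the cKO channel and 5.44, 4.25 and 3.80 times in the control channel. Normalised cKO levels were 7.60, 7.49 and 7.48 and control levels 7.95, 8.10 and 7.64. The groups did not overlap, by a gap smaller than the spread of either group. That lack of overlap was shared by 9.82% of all genes. Arrays 2 and 3 alone averaged -0.38 (limma adjusted p = 1), and with slide as a block -0.36.

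Nfil3, the repressor that competes for D-boxes, gave 1.27, 1.00 and 0.68 on arrays 1 to 3. All 3 values were above 0, with array 1 highest. The mean was 0.98 ± 0.30, or 1.98-fold higher, with a 95% interval of 0.55 to 1.41 (limma adjusted p = 0.199). Nfil3 ranked 203 by p-value and 134 from the highest ratio among the 17852 genes. The signal was 90.2, 63.1 and 53.9 times the local background in the cKO channel and 32.3, 18.7 and 20.4 times in the control channel. Normalised control levels were 10.21, 10.20 and 10.20, while the cKO levels were 11.48, 11.20 and 10.87. The control pools stood together and the cKO pools were apart from each other, with no overlap between groups, as in 9.98% of all genes. Arrays 2 and 3 alone averaged 0.84 (limma adjusted p = 0.98).

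The second Nfil3 probe gave 1.16, 0.71 and 0.13, a mean of 0.67 ± 0.52, in the same order of arrays as the brightest probe. It was also bright, at 37.5, 20.8 and 22.2 times the local background in the cKO channel. The brightest probe exceeded it by 0.11, 0.29 and 0.54 on arrays 1 to 3, a mean of 0.31 ± 0.22. With the scanner software's processed signals the probes averaged 0.98 ± 0.26 and 0.89 ± 0.53. On array 3 the second probe was then 0.36.

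**Figure D2:**
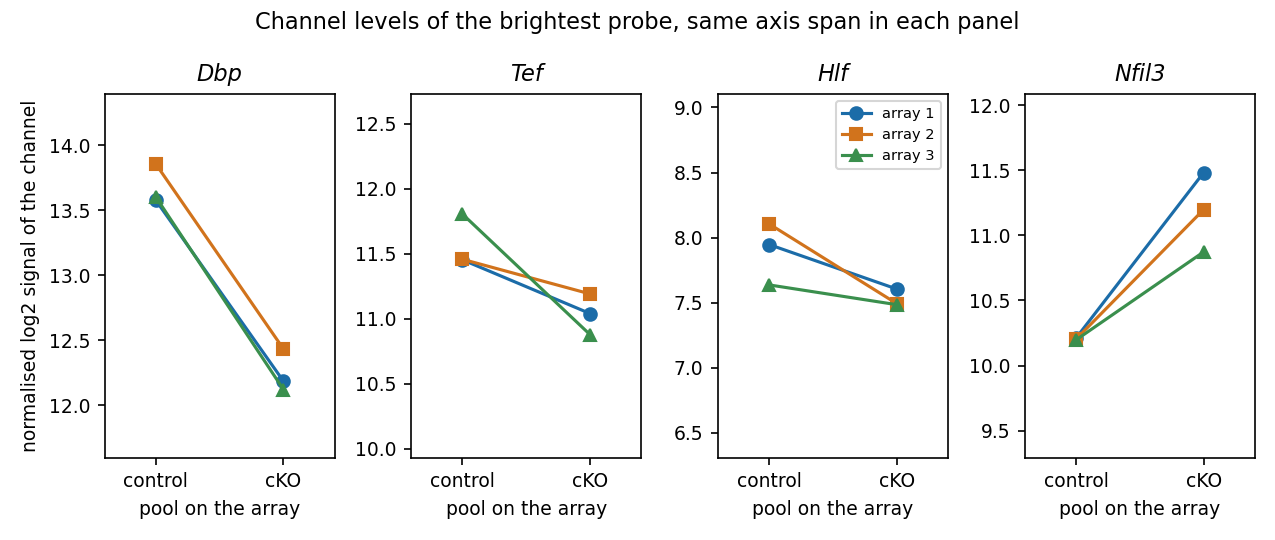
Normalised log2 signal (y axis) of the brightest probe of each gene in the control pool and the cKO pool of each array (x axis), with a line for each array and the same axis span in each panel. Lines run down for Dbp, Tef and Hlf and up for Nfil3, whose control levels lie between 10.20 and 10.21.

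Some marker lists of other cells also differed between groups or arrays. The 6 macrophage markers, all well above background in both channels, summed to 28560 to 62537 in the cKO pools and 13128 to 22325 in the control pools. Their median ratio was 0.84, 0.70 and -0.33 on arrays 1 to 3, with 5 gene means above 0 and 1 below. The 6 fibroblast markers, all above background, summed to 37620 to 58524 in cKO and 32196 to 36900 in control, with medians of 0.69, 1.16 and 0.09. Here too 5 gene means were above 0 and 1 below. Natural killer and T lymphocyte markers, lineages in which NFIL3 acts, were tested for 7 of 10 genes and summed to 821 to 919 in cKO and 768 to 818 in control. Of these lymphocyte markers, 4 gene means were above 0 and 3 below, with a median of 0.11. Ncr1, Prf1 and Eomes were too dim to be tested. Luteal markers, measured for 8 of 8 genes, summed to 135294 to 182861 in cKO and 181632 to 257514 in control. Their median ratio was -0.10, -0.29 and -0.71 on arrays 1 to 3, with 6 gene means below 0 and 2 above. Smooth muscle markers had medians of 0.20, 1.07 and -1.0, and oviduct and surface epithelium markers 1.11, -0.64 and -0.51. The ovarian identity of the samples was seen in the luteal, granulosa (8 of 8) and oocyte (8 of 8) markers, each of which was clearly detected in both genotypes. Of the luteal markers, Star alone passed in limma, and it was lower in cKO. The Dbp ratios spanned 0.09 across the same arrays, which does not tell what part these cells had. That part was not tested for any of the 4 genes.

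Dbp and Nfil3 lay farthest apart. The within-array difference of Dbp minus Nfil3 was -2.66, -2.42 and -2.16, a mean of -2.41 ± 0.25. Dbp was below Tef by -0.98, -1.16 and -0.55 (mean -0.90 ± 0.31) and below Hlf by -1.05, -0.81 and -1.33 (mean -1.06 ± 0.26). Tef minus Hlf was -0.07, 0.35 and -0.78, a mean of -0.17 ± 0.57, and changed sign between arrays. Tef minus Nfil3 was -1.52 ± 0.22 and Hlf minus Nfil3 -1.35 ± 0.45. Of 6 pairs, the 5 other than Tef and Hlf kept their sign on all 3 arrays. In an exact two-sided sign-flip permutation test over 3 arrays each of these 5 gave p = 0.25 (adjusted p = 0.30), the smallest p that 3 arrays allow. Tef and Hlf gave p = 0.75 in the same exact test.

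The clock genes that act on these factors were described beside them. For Arntl, the floxed gene, the ratio was 0.27, 0.13 and -0.24, a mean of 0.06 ± 0.27 (limma adjusted p = 0.932). The labels do not say which part of the gene is floxed, and the probe may lie outside it. The Arntl ratio was therefore not read as a check of the knockout. Of 3 bHLH-PAS activators tested, 0 passed in limma and 1 had an unadjusted p under 0.05, Npas2, a partner of BMAL1 (0.55 ± 0.21). The size of the Npas2 ratio moved with the background correction, to 0.93 with a normexp offset of 10 (limma adjusted p = 0.169) and to 2.13 with the scanner software's processed signals (limma adjusted p = 0.0745). The median of the 3 was 0.47, against 0.00 over all genes tested, and 0.30 without array 3.

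The REV-ERB and ROR receptors are known to act on Nfil3 through an element they share, which was not tested here. The REV-ERB genes lay on the side of Dbp, Nr1d2 at -2.01 ± 0.31 (limma adjusted p = 0.0506) and Nr1d1 at -1.36 ± 0.47 (limma adjusted p = 0.183). The ratios of Nr1d2 were -2.15, -2.24 and -1.65, and those of Nr1d1 -1.06, -1.12 and -1.91. The 2 dimmer probes of Nr1d1 averaged -0.19 and -0.23. Rora, an activator, lay on the side of Nfil3 at 1.11 ± 0.30, with 1.44, 1.01 and 0.87. Its other probes averaged 1.35 and 0.32. Of the 4 receptor genes tested, 0 passed in limma, and 2 lower and 1 higher had an unadjusted p under 0.05. Rorb was too dim to be tested.

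Of the 5 genes tested in the list of PER and CRY repressors, which includes Ciart, 0 passed in limma, and 2 had an unadjusted p under 0.05, both higher. Cry1 was at 1.30 ± 0.52 (second probe 0.80) and Cry2 at 1.42 ± 0.65 (second probe 0.11). Both repress BMAL1-driven transcription. The list's median was 0.07, but 0.34 without array 3, 0.04 without array 2 and 0.29 with median centring in place of loess. That centring put the median of all genes at 0.12. Per3 was too dim to be tested.

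Other genes with E-boxes, Bhlhe40, Bhlhe41, Usp2 and Wee1, had means between -0.17 and 0.32 and a median of -0.07. The median turned to 0.03 without array 2. With median centring it was 0.07, below the median of 0.12 over all genes in that setting. In limma 0 of these 4 passed, and 0 had an unadjusted p under 0.05. Bhlhe41, the repressor DEC2, was alone in keeping its sign on all 3 arrays (-0.17 ± 0.15), and its mean was -0.36 with an offset of 10 and -0.57 with the processed signals. The C/EBP factors, bZIP proteins with related binding sites, had means between -0.05 and 0.21 for the 5 of 6 tested. Their median of 0.03 was -0.0077 without array 1 and 0.25 with median centring, against 0.12 over all genes there. Of them 0 passed in limma, 0 had an unadjusted p under 0.05, and 0 kept their sign on all 3 arrays.

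Known D-box targets outside the clock were mostly dim in ovary. Of 9 listed, 4 were tested, 0 passed in limma and 0 had an unadjusted p under 0.05. The liver and pituitary genes Cyp2a5, Cyp2b10, Cyp7a1 and Tshb and the cytokine Il3 were too dim to be tested. Nr1i3, the nuclear receptor CAR, gave -0.10, -0.09 and -1.42, a mean of -0.54 ± 0.77 that rests on array 3 and was -0.09 without it. Alas1, the first enzyme of heme synthesis, was at -0.19 ± 0.13, with a second probe at 0.25. Pdxk, pyridoxal kinase, was at 0.19 ± 0.14, but at -0.13 with the processed signals. The median of the 4 was -0.10, with -0.22 without array 2, and it turned to 0.04 without array 3. With median centring it was 0.02, below the median of 0.12 over all genes in that setting.

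**Figure D3:**
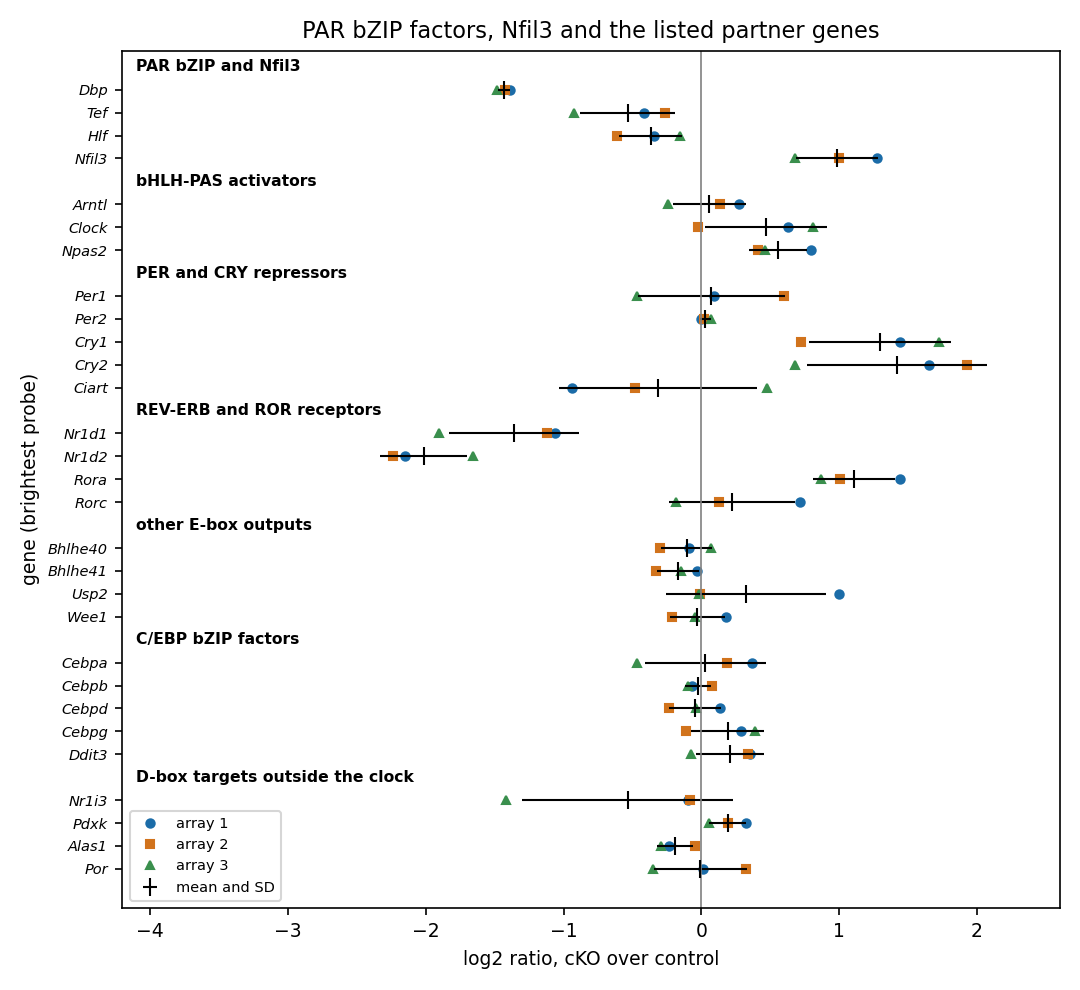
Log2 ratio of cKO over control (x axis) for the 4 factors and the tested genes of each list (y axis), with a symbol for each array and a bar for the mean and SD (n = 3). Nr1d2, Dbp and Nr1d1 lie farthest to the left, and Cry2, Cry1, Rora and Nfil3 farthest to the right.

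The genes nearest to each factor over the 3 array ratios, by Euclidean distance among the 17852 genes, were listed without a test. Nearest to Dbp were Vnn3 (distance 0.173), Sez6l2 (0.174) and Dgat2 (0.307), and 14 genes lay within 0.5. Nearest to Nfil3 were Spag1 (0.121), Mrap (0.124) and Ttc38 (0.141), with 51 genes within 0.5. Cacfd1, Tbc1d25 and Zfp628 were nearest to Tef, where 818 genes lay within 0.5. Ehd3, Tmem123 and St7l were nearest to Hlf, where 1939 genes did. Distances over 3 points on shared arrays describe likeness of these ratios only.

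**Figure D4:**
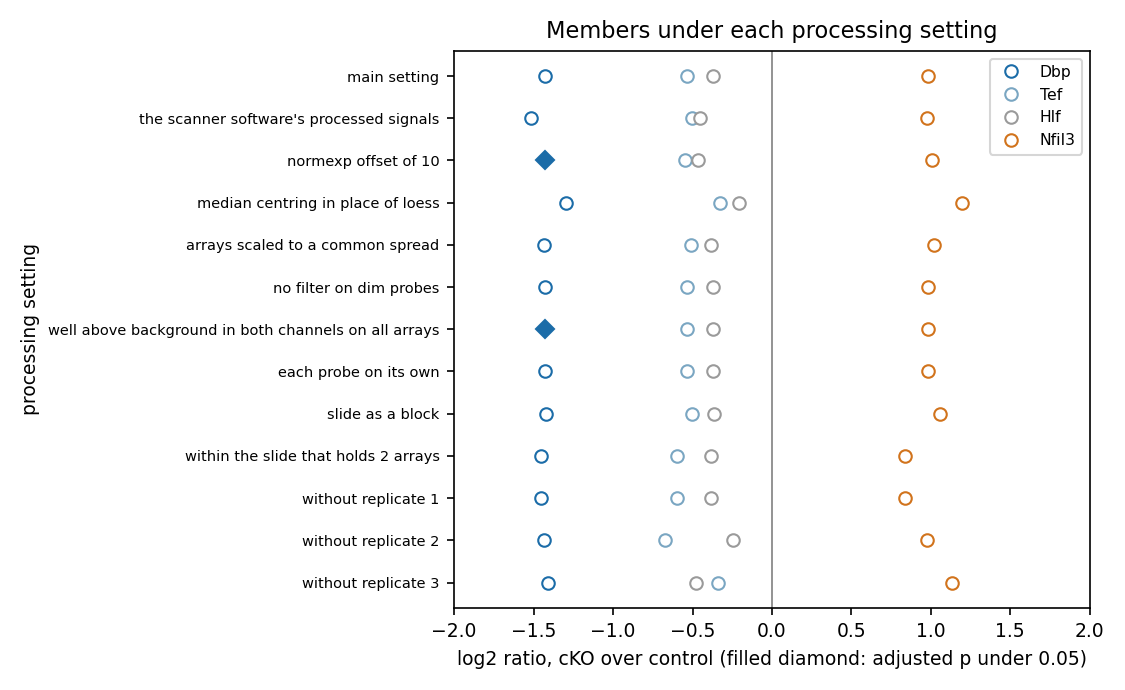
Log2 ratio of cKO over control (x axis) of the 4 factors under each processing setting (y axis); filled diamonds mark an adjusted p under 0.05 in limma. Dbp stays between -1.52 and -1.30 and Nfil3 between 0.84 and 1.19, and the 2 filled diamonds are both Dbp.

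The arrays differed from each other over all genes, with Pearson's r across the 17852 genes, which are not independent replicates, at 0.601 for arrays 1 and 2, 0.213 for arrays 1 and 3 and 0.00875 for arrays 2 and 3. Over all probes with the scanner software's ratios, r was 0.35, 0.0508 and -0.201 in that order. Spots well above background made up 67.4% to 69.1% in the cKO channel and 62.9% to 65.8% in the control channel. No member spot was saturated or marked as an outlier. With 3 arrays, precision is limited by their number.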

How the data were processed

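Ovary RNA was measured on 3 two-colour Agilent arrays, each a pool of 3 cKO animals (cy3, green) against a pool of 3 controls (Cy5, red), per the labels. Spot and background intensity values were deposited as scanned with Agilent Feature Extraction, version 9.1.3.1 per the file headers. The authors' deposited log10 ratios divide red by green processed signals, so their sign was turned; among spots well above background in both channels 100% matched within 0.001. The deposited value table is identical to them (largest difference 0).

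Mean signals were corrected by normexp (offset 50) with median local background and loess-normalised within arrays, control spots at weight 0, in limma 3.58.1 under R 4.3.3. Flagged outlier spots (13, 4 and 0) were dropped and replicate spots averaged. Probes well above background in either channel on all 3 arrays were kept, and the brightest read each gene. Spots were named through RefSeq (GRCm38.p6), 8529 of 43379 keeping the file's name. Ratios were tested against 0 with lmFit and eBayes, two-sided, threshold 0.05. The p-values reflect the spread between pools, which eBayes draws toward that of all genes. For Dbp, with an SD of 0.05, the limma standard error was 0.12. Channel levels were set by Aquantile after loess. Positions of probes in the genome were not used here. No other processing by the authors is stated in the labels or headers.

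The members and gene lists were chosen with earlier results of these data known. List genes have their own value where all 3 arrays share a sign, and Arntl always, a choice made after the values were seen. The test was tried on simulated data. Leave-one-out, slide, background, normalization, filter and probe choices were the alternatives.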

Additional observations from a re-analysis of the deposited data

How the results depend on the processing

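Of 12 alternatives, 12 kept the direction of each of Dbp, Tef, Hlf and Nfil3, but most of them could not have reversed it. Each gene had the same sign on every array, so leaving out a replicate, the within-slide fit and the slide block could not change direction. The within-slide fit is also the fit without replicate 1. The filter settings and the fit of each probe on its own reused the same ratios. Array values were recomputed only with the processed signals, the smaller offset, median centring and scaled arrays. Scaling multiplies all ratios of an array by a positive factor, so it could not change direction either. Dbp ranged from -1.52 to -1.30 (limma adjusted p 0.0444 to 0.345) and passed in 2: -1.43 with a normexp offset of 10 (adjusted p = 0.0495) and -1.43 with the stricter filter on dim probes (adjusted p = 0.0444). Tef ranged from -0.67 to -0.33 (adjusted p 0.172 to 1), Hlf from -0.48 to -0.20 (0.129 to 1) and Nfil3 from 0.84 to 1.19 (0.0807 to 0.98). Leaving out 1 replicate gave -1.45 to -1.41 for Dbp, -0.67 to -0.34 for Tef, -0.48 to -0.25 for Hlf and 0.84 to 1.13 for Nfil3. Median centring moved the median of all genes to 0.12. Hlf at -0.20, Tef at -0.33, Dbp at -1.30 and Nfil3 at 1.19 in that setting are to be read against it.

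The number of genes past the threshold, 31 (38.7% higher), was 53 with the scanner software's processed signals (50.9% higher), 57 with the smaller offset (49.1%) and 48 with slide as a block (54.2%). It was 1 with median centring, 1 with each probe on its own and 1 within the slide of arrays 2 and 3. It was 0 with scaled arrays, where 2303 genes had an unadjusted p under 0.05, 0 with no probe removed as dim, where 3181 had, and 0 to 20 without 1 replicate (without replicate 1, 1; without replicate 2, 20; without replicate 3, 0, with 4783 at an unadjusted p under 0.05). The cause was not tested. Arntl turned to -0.053 within that slide, which is also the setting without replicate 1 (range on leaving out 1 replicate -0.053 to 0.20), and Pdxk to -0.13 with the processed signals. Nr1d2 passed in 4 alternatives. The test of the within-array ratio against 0 is itself the paired analysis of the 2 pools on an array. Dim spots limit the 3 weaker Tef probes.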
